A study of Homo sapiens with 24 samples.

Results

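Fatty acids are built in the cytosol by a short chain of enzymes, and 10 of their genes were followed here across a SIRT1 knockdown in LNCaP cells, a hormone-sensitive human prostate cancer line. The genes were FASN, ACACA, ACACB, ACLY, SCD, ME1, ACSL1, ACSL3, ACSL4 and ACSL5, taken by symbol from the 23207 gene symbols of the deposited RNA sequencing tables. All 10 passed the filter on low counts in every fit. The enzymes make acetyl-CoA (ACLY) and NADPH (ME1), turn acetyl-CoA into malonyl-CoA (ACACA, ACACB), join these into palmitate (FASN), add a first double bond (SCD) and activate long fatty acids to acyl-CoA (the ACSL enzymes). In prostate cancer cells the pathway is known as a target of the androgen receptor, partly through SREBP transcription factors, and FASN is often abundant in prostate tumours. SIRT1 is a deacetylase that uses NAD, and SREBP1 is among its known substrates.

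The series holds 24 libraries in 8 groups of 3. Every cell had received lentiviral particles with a short hairpin RNA at a multiplicity of infection of 10, had been selected with 1 µg/ml puromycin and was kept as a stable clone in 0.5 µg/ml. In fetal bovine serum (FBS), which contains androgens, the groups were shSIRT1 cells and cells with a non-targeting control hairpin (NTC). In charcoal-stripped serum (CSS), from which androgens are removed, a SIRT1 knockdown named 10 (KD10) and NTC cells had 48 h in FBS medium and 24 h in CSS medium. They then had 24 h of vehicle, of 1 nM dihydrotestosterone (DHT, an androgen), or of 1 nM DHT with 10 µM enzalutamide, an antagonist of the androgen receptor. Nothing in the labels ties shSIRT1 to knockdown 10 as a shared hairpin or clone, or says that replicates were separate cultures, so p-values measure the spread between these libraries, which may be technical. Each serum set names a single knockdown, so loss of SIRT1 and other differences between stable clones cannot be told apart. The FBS comparison asks which genes SIRT1 targets, and the CSS comparisons ask how SIRT1 acts under androgen withdrawal, androgen and antiandrogen.

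SIRT1 averaged 8.11 ± 0.788 CPM in shSIRT1 cells and 38.2 ± 1.60 CPM in NTC cells in FBS, a 4.71-fold lower level, and it was 2.93-, 3.14- and 2.95-fold lower in KD10 cells with vehicle, DHT and DHT with enzalutamide. Here and throughout, levels are mean ± SD with n = 3 libraries, CPM is a library's count scaled to its depth by TMM within each serum set, and levels between genes are compared only in TPM, which also corrects for transcript length. KLK3, the prostate-specific antigen gene and a standard readout of the androgen receptor, was 15.7-fold higher with DHT than with vehicle in KD10 cells and 9.37-fold higher in NTC cells. It was 3.83-fold lower in shSIRT1 than in NTC cells in FBS, and 4.23-, 2.52- and 3.05-fold lower in KD10 than in NTC cells with vehicle, DHT and DHT with enzalutamide; its part in the results that follow was not tested. All 12 luminal prostate markers were present, while KRT5, TP63, CAV1, PTPRC, CDH5, APOB and FABP4 were at or near 0 TPM. Some markers of other cells were detected, among them VIM with 7.33 to 45.5 TPM, TTR with 2.76 to 24.0, LYZ with 1.43 to 9.88, COL1A1 with 3.59 to 8.5, CD68 with 5.04 to 7.84 and ADIPOQ with 0.04 to 3.15 TPM, and their part in the results was not tested. Libraries held 11.9 to 14.2 M counts in FBS and 25.2 to 35.1 M in CSS. Replicates 1 and 2 of both FBS groups lay far closer to each other (chi-square per gene 1.55 and 1.60) than to replicate 3 (8.90 to 9.40), so an FBS result is also given with their counts summed. In CSS, replicate 1 stood apart from the others in most groups, and replicate 2 of DHT-treated KD10 cells differed most from its group (chi-square per gene 38.6 and 22.4). Fewer cells that express a gene and less RNA per cell cannot be told apart in such bulk libraries.

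SCD had the highest mean TPM of the 10 in every group. In NTC cells with vehicle it had 334 ± 9.36 TPM, followed by ACLY with 165 ± 7.41, ACSL1 with 161 ± 5.45, FASN with 136 ± 11.2, ACACA with 105 ± 3.98, ME1 with 71.9 ± 4.37 and ACSL3 with 59.7 ± 2.32 TPM. ACACB (3.37 ± 0.455 TPM), ACSL4 (2.32 ± 0.581 TPM) and ACSL5 (1.79 ± 0.190 TPM) were far below these, so ACACA transcripts far outnumbered those of ACACB, the other acetyl-CoA carboxylase. ACLY and ACSL1 lay within their spread of each other, as did ACSL4 and ACSL5. The order was different in FBS, where FASN had 424 ± 31.7 TPM in NTC cells, next to SCD with 470 ± 70.0 TPM, and these 2 lay within their spread. FASN was above SCD in 2 of 3 shSIRT1 libraries and in 1 of 3 NTC libraries there. The FBS and CSS libraries were processed by RSEM with different fragment settings, since it took 50 bases off each transcript length in FBS and 224 to 252 bases in CSS, so their levels are set side by side and were not tested against each other.

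**Figure D1:**
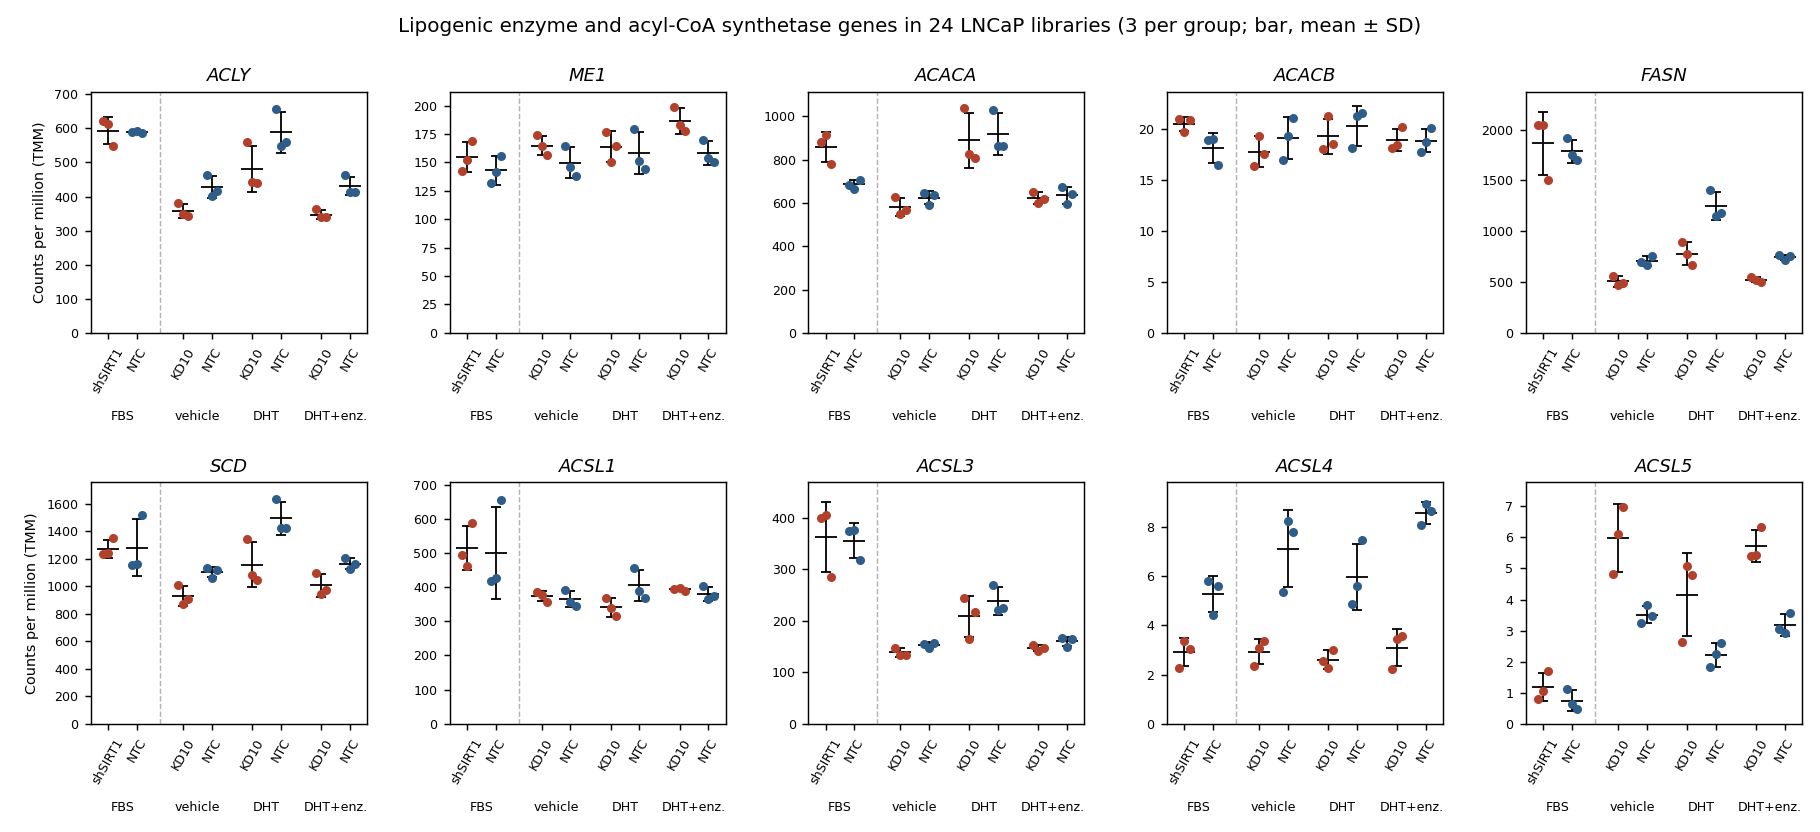
Level of each of the 10 genes in every library (points; vertical axes, CPM scaled by TMM within each serum set, each starting at 0) with the group mean and SD (bars, n = 3), for shSIRT1 or KD10 cells (red) left of NTC cells (blue) in FBS and in CSS with vehicle, DHT, or DHT with enzalutamide (horizontal axis). FASN lies lower in KD10 than in NTC cells under all 3 CSS treatments without overlap, and ACSL4 and ACSL5 lie under 10 CPM with opposite knockdown changes.

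To show the DNA next to the genes that moved together, the 250 bases before the annotated start were read from the RefSeq promoter table (GRCh38.p14), which held 9 of the 10 genes and not FASN. Printed are genes that rose with DHT (SCD, ACSL3, the first of 2 annotated starts of ACLY and the second of 3 of ACACA) and ACSL4 and the second of 2 starts of ACSL5, which changed with the knockdown. Capitals mark CCAAT, the box bound by NF-Y, GGGCGG, the GC box bound by Sp1, and AGAACA, the core of androgen receptor sites, on either strand. Which start these cells used cannot be read from gene counts.
ACLY (chr17:41919023-41919272, minus strand): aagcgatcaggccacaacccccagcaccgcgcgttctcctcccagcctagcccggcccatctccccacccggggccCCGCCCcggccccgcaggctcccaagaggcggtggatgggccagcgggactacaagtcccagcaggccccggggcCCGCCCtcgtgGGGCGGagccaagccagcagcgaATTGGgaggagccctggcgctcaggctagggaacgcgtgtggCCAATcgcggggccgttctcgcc
SCD (chr10:100346983-100347232, plus strand): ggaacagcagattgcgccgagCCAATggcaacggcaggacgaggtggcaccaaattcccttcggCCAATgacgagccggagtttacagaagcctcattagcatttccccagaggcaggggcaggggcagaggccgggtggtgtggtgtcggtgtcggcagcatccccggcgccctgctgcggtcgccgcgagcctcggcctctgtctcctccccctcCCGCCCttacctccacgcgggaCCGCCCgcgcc
ACSL3 (chr2:222860786-222861035, plus strand): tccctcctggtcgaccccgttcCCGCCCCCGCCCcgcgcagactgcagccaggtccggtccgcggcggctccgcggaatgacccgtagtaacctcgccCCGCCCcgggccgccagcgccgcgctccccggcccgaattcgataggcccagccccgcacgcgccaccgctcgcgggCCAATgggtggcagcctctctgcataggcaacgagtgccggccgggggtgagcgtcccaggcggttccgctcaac
ACACA (chr17:37359097-37359346, minus strand): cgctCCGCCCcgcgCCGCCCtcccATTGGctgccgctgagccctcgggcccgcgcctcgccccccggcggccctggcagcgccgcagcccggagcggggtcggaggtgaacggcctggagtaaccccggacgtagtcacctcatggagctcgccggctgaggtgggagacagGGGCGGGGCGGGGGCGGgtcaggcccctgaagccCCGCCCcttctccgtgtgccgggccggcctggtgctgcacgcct
ACSL4 (chrX:109733258-109733507, minus strand): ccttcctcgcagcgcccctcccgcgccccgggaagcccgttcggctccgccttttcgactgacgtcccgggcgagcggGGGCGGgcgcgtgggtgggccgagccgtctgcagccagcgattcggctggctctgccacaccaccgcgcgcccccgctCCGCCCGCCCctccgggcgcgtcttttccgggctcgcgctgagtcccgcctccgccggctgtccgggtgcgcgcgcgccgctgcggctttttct
ACSL5 (chr10:112375955-112376204, plus strand): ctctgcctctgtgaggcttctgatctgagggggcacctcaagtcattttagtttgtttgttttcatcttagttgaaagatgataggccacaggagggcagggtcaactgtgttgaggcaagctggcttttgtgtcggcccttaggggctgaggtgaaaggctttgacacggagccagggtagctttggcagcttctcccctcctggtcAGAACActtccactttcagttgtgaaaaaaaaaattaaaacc

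Each of the first 4 windows held CCAAT and GGGCGG together, a pair found in 13.1% of the 34943 windows of this length in the table. CCAAT alone was in 32% and GGGCGG in 42.5% of them. ACLY had 2 CCAAT and 3 GC boxes, SCD had 2 and 2, ACSL3 had 1 and 3, and ACACA had 1 and 6, some of which overlap. The ACACA window was picked for holding both: the first ACACA start had 5 GC boxes and no CCAAT, and the third had 2 CCAAT and no GC box, and a gene with several starts has more windows in which to find a match. The pair was also in windows of ACACB and ACSL1, which were not called with DHT. The ACSL4 window had 3 GC boxes and no CCAAT, and the second ACSL5 window had neither but held AGAACA (in 12.4% of windows) 42 bases before the start. The first ACSL5 window held none of the motifs, and the fifth window of ACSL1 held 2 AGAACA. The E-box CACGTG (6.32% of windows) was in none of the members' windows, and TCACNCCAC, a sterol regulatory element (0.881%), was only in that of the third annotated start of ACSL1. A match is a description of letters and says nothing of binding.

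DHT raised 5 of the 10 genes in both cell types: FASN, ACACA, ACLY, SCD and ACSL3, which together run from cytosolic acetyl-CoA to desaturated and activated fatty acid. In KD10 cells 5 genes rose and none fell, where 13.3% of the 14558 genes tested rose and 8.92% fell, at a Benjamini-Hochberg adjusted p under 0.05 from edgeR's quasi-likelihood F test (22.2% were called in either direction). In NTC cells 5 rose and 1 fell, where 17.4% of genes rose and 12.5% fell (29.9% in either direction). The median log2 change of the 10 genes was 0.22 in KD10 and 0.29 in NTC cells, against 0.01 and -0.00 over all genes tested. Replicates did not overlap between treatments for 5 of the 10 genes in KD10 and 6 in NTC cells, where 31.7% and 45.8% of all genes did not overlap. All 5 stayed called without replicate 1 in every CSS group, which was tried after the data were seen, and without replicate 2 of DHT-treated KD10 cells.

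ACLY, which splits citrate into acetyl-CoA, had 559, 442 and 439 CPM with DHT, against 382, 350 and 344 CPM with vehicle, in KD10 cells. NTC cells had 658, 548 and 560 CPM with DHT, against 464, 402 and 417 CPM with vehicle. The groups did not overlap in either cell type, and ACLY was 1.34-fold higher with DHT in KD10 (adjusted p = 0.00269 by edgeR) and 1.38-fold higher in NTC cells (adjusted p = 0.000886 by edgeR). ME1, the cytosolic malic enzyme that yields NADPH, averaged 164 ± 13.3 CPM with DHT and 165 ± 8.69 CPM with vehicle in KD10 cells, and 158 ± 18.5 and 150 ± 13.6 CPM in NTC cells. Its groups overlapped in both cell types, and the log2 change was -0.01 in KD10 (95% interval -0.19 to 0.17) and 0.08 in NTC cells (-0.10 to 0.26).

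ACACA makes the cytosolic malonyl-CoA that feeds FASN. It had 1037, 825 and 806 CPM with DHT, against 626, 549 and 566 CPM with vehicle, in KD10 cells. In NTC cells it had 1029, 865 and 862 CPM with DHT, against 646, 589 and 635 CPM with vehicle. Every DHT library was above every vehicle library, and ACACA was 1.53-fold higher with DHT in KD10 (adjusted p = 9.31e-05 by edgeR) and 1.47-fold higher in NTC cells (adjusted p = 0.000147 by edgeR). ACACB, the isoform at the mitochondrial surface whose malonyl-CoA restrains fatty acid oxidation, stayed at 19.3 ± 1.71 CPM with DHT and 17.7 ± 1.5 CPM with vehicle in KD10 cells, and at 20.3 ± 1.93 and 19.1 ± 2.07 CPM in NTC cells, with groups that overlapped. Its log2 changes were 0.12 (-0.08 to 0.32) in KD10 and 0.08 (-0.12 to 0.28) in NTC cells.

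FASN, the synthase itself, had 891, 775 and 664 CPM with DHT, against 564, 467 and 488 CPM with vehicle, in KD10 cells. In NTC cells it had 1401, 1152 and 1182 CPM with DHT, against 698, 664 and 761 CPM with vehicle. It was 1.53-fold higher with DHT in KD10 (log2 0.62 with SE 0.0982, adjusted p = 0.000194 by edgeR) and 1.76-fold higher in NTC cells (log2 0.82 with SE 0.0982, adjusted p = 5.4e-06 by edgeR). The lowest DHT library of KD10 cells, 664 CPM, equalled the lowest vehicle library of NTC cells to 3 digits. SCD, the delta-9 desaturase that makes oleate, had 1343, 1082 and 1043 CPM with DHT, against 1012, 873 and 910 CPM with vehicle, in KD10 cells. NTC cells had 1632, 1425 and 1427 CPM with DHT, against 1135, 1062 and 1119 CPM with vehicle. Groups did not overlap, and SCD was 1.24-fold higher with DHT in KD10 (adjusted p = 0.0174 by edgeR) and 1.35-fold higher in NTC cells (adjusted p = 0.00115 by edgeR). The SCD call in KD10 cells was lost without vehicle replicate 2 or 3 or DHT replicate 1 (adjusted p = 0.0846 to 0.166 by edgeR). It was also lost with limma on TPM and with only the groups compared in the fit.

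The 4 acyl-CoA synthetases parted ways under DHT. ACSL3, a synthetase of the endoplasmic reticulum and lipid droplets, had 244, 165 and 216 CPM with DHT, against 148, 134 and 134 CPM with vehicle, in KD10 cells. NTC cells had 269, 221 and 226 CPM with DHT, against 156, 147 and 157 CPM with vehicle. It was 1.5-fold higher in KD10 (adjusted p = 0.000496 by edgeR) and 1.56-fold higher in NTC cells (adjusted p = 0.000134 by edgeR), the only ACSL gene of the 4 called higher. ACSL1, the main synthetase of liver and fat, had 370, 340 and 314 CPM with DHT, against 387, 377 and 357 CPM with vehicle, in KD10 cells, and 457, 390 and 368 CPM with DHT, against 391, 357 and 346 CPM with vehicle, in NTC cells. Its groups overlapped in both, with log2 changes of -0.13 (-0.29 to 0.03) in KD10 and 0.15 (-0.01 to 0.31) in NTC cells. Same-numbered NTC libraries varied together, and once the replicate number was a block term ACSL1 was called higher with DHT in NTC cells (adjusted p = 0.0196 by edgeR). In KD10 cells, where not all same-numbered libraries varied together, the block called it lower (log2 -0.13, adjusted p = 0.0436 by edgeR). Leaving out replicate 1 in every CSS group also made it a call there.

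ACSL5, a synthetase of mitochondria and endoplasmic reticulum, moved against the genes that DHT raised, at a low level. It had 2.62, 5.07 and 4.79 CPM with DHT, against 4.84, 6.11 and 6.99 CPM with vehicle, in KD10 cells, which overlapped and missed the threshold (log2 -0.51, adjusted p = 0.067 by edgeR). In NTC cells it had 1.82, 2.26 and 2.59 CPM with DHT, against 3.26, 3.82 and 3.48 CPM with vehicle, and it was 1.59-fold lower with DHT (adjusted p = 0.0251 by edgeR) with no overlap. That call was lost without vehicle replicate 2 or 3 or DHT replicate 1 or 2 (adjusted p = 0.0503 to 0.119 by edgeR), and in KD10 cells a call was gained without vehicle replicate 1 or DHT replicate 2 (adjusted p = 0.0249 to 0.0318 by edgeR). ACSL4, which prefers arachidonate and is known to be low in androgen-sensitive prostate cancer lines, averaged 2.61 ± 0.371 CPM with DHT and 2.94 ± 0.521 CPM with vehicle in KD10 cells, and 5.97 ± 1.34 and 7.12 ± 1.56 CPM in NTC cells. Its groups overlapped, with log2 changes of -0.16 (-0.63 to 0.30) and -0.26 (-0.66 to 0.14).

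**Figure D2:**
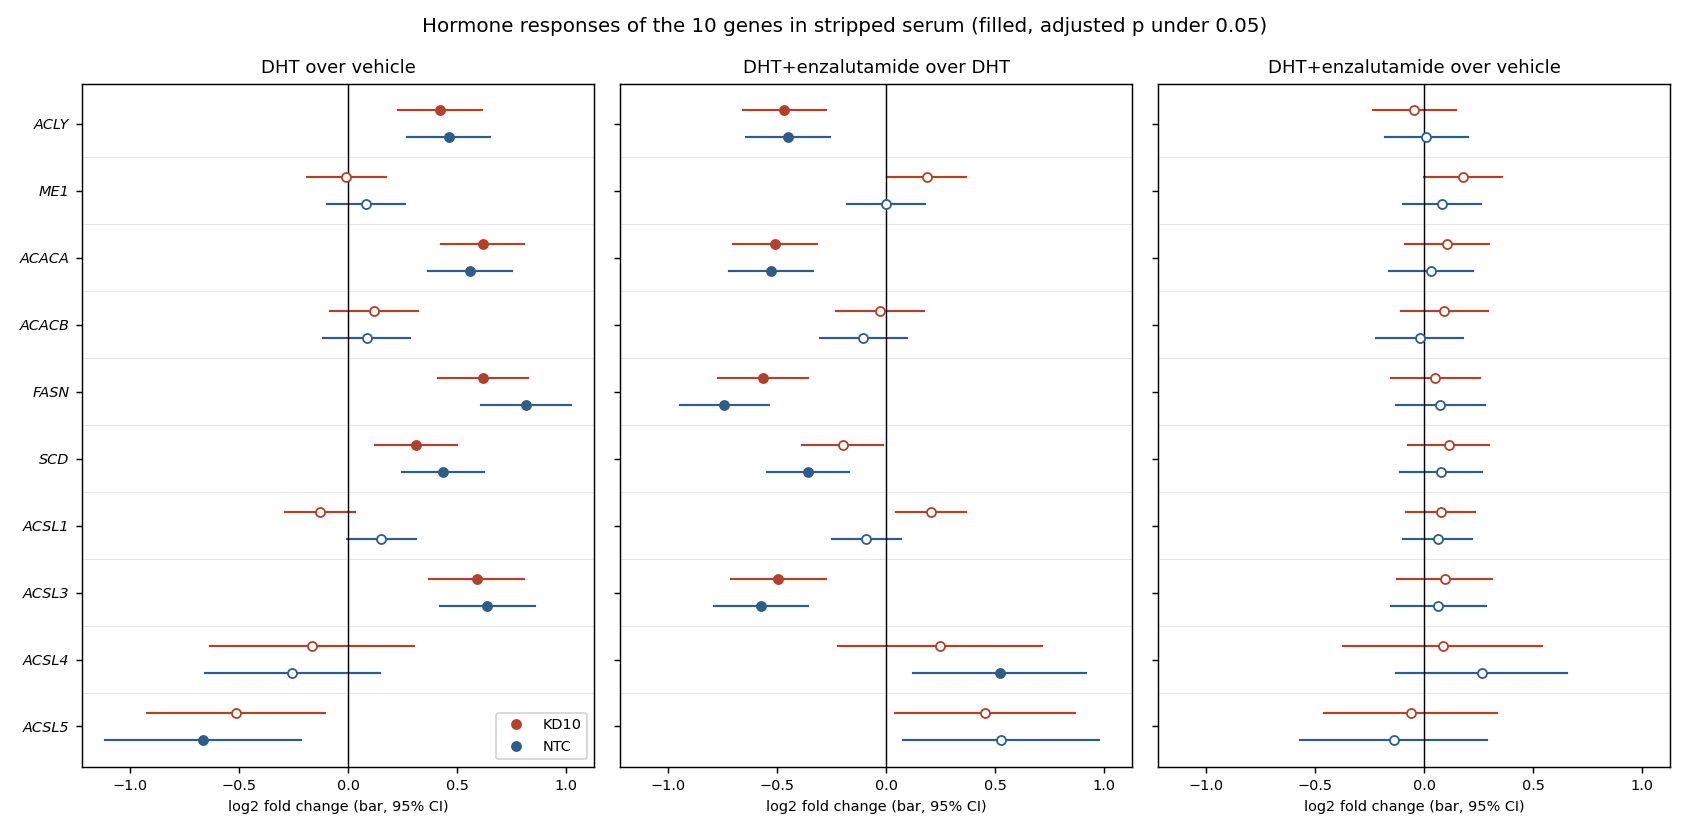
Fitted log2 fold change (horizontal axis, with 95% interval) of each gene for DHT over vehicle, DHT with enzalutamide over DHT, and DHT with enzalutamide over vehicle, in KD10 cells (red, above) and NTC cells (blue). Filled points had an adjusted p under 0.05: FASN, ACACA, ACLY and ACSL3 are filled on the right of 0 for DHT and on the left for added enzalutamide in both cell types, and no point is filled in the third panel.

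With enzalutamide added, FASN, ACACA, ACLY and ACSL3 fell in both cell types, and SCD fell in NTC cells. In KD10 cells 4 of the 10 genes fell (12.2% of genes tested fell and 8.08% rose, 20.3% called in either direction) and in NTC cells 5 fell and 1 rose (16.6% fell and 12.6% rose, 29.2% called). Replicates did not overlap for 7 of the 10 in both, where 31.2% of all genes in KD10 and 46% in NTC cells did not overlap. FASN had 552, 518 and 504 CPM with DHT and enzalutamide in KD10 cells, where DHT alone gave 776 ± 114 CPM, and 761, 717 and 754 CPM in NTC cells, where DHT alone gave 1245 ± 136 CPM. It was 1.48-fold lower in KD10 (adjusted p = 0.000471 by edgeR) and 1.67-fold lower in NTC cells (adjusted p = 1.49e-05 by edgeR), with no overlap in either.

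ACACA was 1.43-fold lower in KD10 cells (623 ± 26.5 CPM with enzalutamide added and 889 ± 128 CPM with DHT alone) and 1.44-fold lower in NTC cells (636 ± 39.3 and 919 ± 95.6 CPM). ACLY was 1.38-fold lower in KD10 cells (347 ± 13.6 and 480 ± 68.1 CPM) and 1.37-fold lower in NTC cells (430 ± 27.2 and 588 ± 60.7 CPM). ACSL3 was 1.41-fold lower in KD10 cells (148 ± 5.77 and 208 ± 39.8 CPM) and 1.49-fold lower in NTC cells (160 ± 8.73 and 238 ± 26.3 CPM). These 6 changes had adjusted p of 0.000252 to 0.00232 by edgeR, and no library with enzalutamide reached the level of a library with DHT alone. SCD fell 1.28-fold in NTC cells (adjusted p = 0.00505 by edgeR), while in KD10 cells it had 1006 ± 81.3 CPM with enzalutamide added and 1156 ± 163 CPM with DHT alone (log2 -0.20, adjusted p = 0.121 by edgeR).

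Among the genes that DHT had not raised, 1 change was called. ACSL4 was 1.43-fold higher with enzalutamide added in NTC cells, with 8.06, 8.95 and 8.64 CPM against 4.85, 5.59 and 7.46 CPM with DHT alone (adjusted p = 0.0459 by edgeR). This call was lost without DHT replicate 1 or 2 or any of the libraries with enzalutamide (adjusted p = 0.0629 to 0.194 by edgeR). ACSL5 had 5.40, 5.43 and 6.32 CPM with enzalutamide added in KD10 cells and 3.04, 2.92 and 3.57 CPM in NTC cells, above every library with DHT alone in both, with log2 changes of 0.45 and 0.52 that missed the threshold (adjusted p = 0.113 and 0.0742 by edgeR). With the replicate block, ACSL5 passed it in KD10 (adjusted p = 0.0179 by edgeR) and NTC cells (0.0137). In KD10 cells the block also added ACSL1 (log2 0.21, adjusted p = 0.00297 by edgeR), ME1 (0.19, 0.00376) and SCD (-0.20, 0.00686), so 8 of the 10 genes were called there with it, as were 4518 of all genes in place of 2949. Without DHT replicate 1 ACSL1 was called in KD10 cells (adjusted p = 0.0255 by edgeR), and without DHT replicate 2 so was ACSL5 (0.0418).

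Against vehicle, DHT with enzalutamide left none of the 10 genes called in KD10 or NTC cells (adjusted p = 1 for each by edgeR; 0.00687% of all genes tested were called in KD10 cells and 0% in NTC cells). At an unadjusted p under 0.05 there were likewise 0 of the 10 in both, and DESeq2 and limma called 0. The log2 differences spanned -0.06 to 0.18 in KD10 and -0.14 to 0.26 in NTC cells. For FASN the intervals were -0.16 to 0.26 and -0.13 to 0.28, and for ACACA -0.09 to 0.30 and -0.16 to 0.22. With 3 libraries per group, residual changes within these unadjusted intervals were not excluded. The bounds are not limits of detection, since larger changes, such as those of KLK3 here, also missed the threshold on adjusted p. Replicates did not overlap for ME1 and ACSL1 in KD10 cells and for no gene in NTC cells, where 9.4% and 9.07% of all genes did not overlap. The median log2 difference of the 10 was 0.09 in KD10 and 0.06 in NTC cells, against 0.00 over all genes in both. KLK3 was not called but lay 2.14-fold above vehicle in KD10 (adjusted p = 0.053 by edgeR) and 1.54-fold in NTC cells (unadjusted p = 0.000353 by edgeR), without overlap.

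The DHT response was not shown to differ between KD10 and NTC cells for any of the 10 genes (0.199% of genes tested were called, 0.0412% higher; edgeR's unadjusted p was under 0.05 for 1 of the 10, DESeq2 and limma called 0). For FASN the response in KD10 minus that in NTC cells was -0.20 on the log2 scale (95% interval -0.49 to 0.09). The gene under 0.05 was ACSL1, with a difference of -0.28 (-0.51 to -0.06, adjusted p = 0.312 by edgeR, 0.0352 with the replicate block). The enzalutamide response gave the same picture (0.35% of genes called, 0.0824% lower, and 1 of the 10 at an unadjusted p under 0.05). ACSL1 differed by 0.30 (0.07 to 0.52, adjusted p = 0.251 by edgeR, 0.0224 with the block) and FASN by 0.18 (-0.11 to 0.47). These interactions and the separate responses use the same libraries with DHT.

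FASN was lower in KD10 than in NTC cells under all 3 treatments in stripped serum. With vehicle, FASN averaged 506 ± 51.1 CPM in KD10 and 707 ± 49.3 CPM in NTC cells, 1.40-fold lower (log2 -0.48, SE 0.0980, adjusted p = 0.000962 by edgeR). With DHT it was 1.60-fold lower (776 ± 114 and 1245 ± 136 CPM, log2 -0.68, SE 0.0981, adjusted p = 2.54e-05 by edgeR). With DHT and enzalutamide it was 1.42-fold lower (524 ± 24.9 and 744 ± 23.7 CPM, log2 -0.50, SE 0.0980, adjusted p = 0.000678 by edgeR). The 3 KD10 libraries were below the 3 NTC libraries each time, and the call held in every alternative run.

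Of the 10 genes, 1 rose and 4 fell with vehicle (34.6% of genes tested were called, 15.5% higher and 19.1% lower), 1 rose and 5 fell with DHT (43% called, 19.5% higher and 23.5% lower), and 2 rose and 3 fell with DHT and enzalutamide (34.6% called, 15.4% higher and 19.2% lower). Replicates of the 2 cell types did not overlap for 5, 4 and 6 of the 10 genes, where 47.4%, 47% and 48.7% of all genes did not overlap. These shares lie near those of all genes. Median log2 changes of the 10 were -0.13, -0.22 and -0.07, against -0.00, -0.00 and 0.00 over all genes.

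Upstream of FASN, ACLY was 1.19-, 1.23- and 1.24-fold lower in KD10 than in NTC cells with vehicle (358 ± 20.5 and 428 ± 32.0 CPM, adjusted p = 0.0371 by edgeR), DHT (0.0144, with 1 KD10 library inside the NTC range) and DHT with enzalutamide (0.0135). Several single libraries carried these calls: without NTC replicate 1 they were lost under all 3 treatments, as they were without KD10 replicate 2. Leaving out NTC replicate 3 or KD10 replicate 3 ended the vehicle call, and leaving out KD10 replicate 3 ended the DHT call (adjusted p = 0.0517 to 0.16 by edgeR over all these). ACACA gave no call, with 580 ± 40.6 CPM in KD10 and 623 ± 30.2 CPM in NTC cells with vehicle, and log2 changes of -0.10, -0.05 and -0.03 whose intervals lay within -0.30 and 0.16. ACACB gave -0.11, -0.07 and 0.00. ME1 was 1.18-fold higher in KD10 cells with DHT and enzalutamide, with 199, 183 and 178 CPM against 170, 153 and 151 CPM in NTC cells (adjusted p = 0.0389 by edgeR). That call was lost without NTC replicate 2 or 3 or KD10 replicate 1 or 2 (adjusted p = 0.0597 to 0.129 by edgeR), and with vehicle ME1 (log2 0.14, adjusted p = 0.219) passed the threshold with the replicate block (adjusted p = 0.0139 by edgeR) and without replicate 1 in every CSS group.

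Downstream of FASN, SCD was 1.19-fold lower in KD10 cells with vehicle (adjusted p = 0.0387 by edgeR) and 1.29-fold lower with DHT (adjusted p = 0.00264 by edgeR), and it was 1006 ± 81.3 CPM in KD10 and 1165 ± 40.4 CPM in NTC cells with DHT and enzalutamide (log2 -0.21, adjusted p = 0.074 by edgeR, 0.00229 with the replicate block). The vehicle call was lost without any NTC library, and without KD10 replicate 2 or 3 (adjusted p = 0.0604 to 0.169 by edgeR), and the third became a call without KD10 replicate 1 (0.0442) or without replicate 1 in every CSS group. ACSL1 was 1.19-fold lower in KD10 cells with DHT (341 ± 27.7 and 405 ± 46.4 CPM, adjusted p = 0.0136 by edgeR), with 1 KD10 library inside the NTC range, and the call was lost without NTC replicate 1 or KD10 replicate 3 (0.0626 to 0.0849). With vehicle and with DHT and enzalutamide its log2 changes were 0.03 (-0.12 to 0.19) and 0.05 (-0.11 to 0.21). ACSL3 was not called (log2 -0.14, -0.19 and -0.11), but with DHT it passed the threshold when KD10 replicate 1 was left out (adjusted p = 0.0118 by edgeR) and with a replicate block (0.0192).

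ACSL4 and ACSL5 had the largest knockdown folds of the 10 genes and went in opposite directions. ACSL4 had 2.36, 3.09 and 3.36 CPM in KD10 cells, against 5.34, 8.23 and 7.78 CPM in NTC cells, with vehicle. It was 2.43-, 2.28- and 2.75-fold lower in KD10 cells with vehicle, DHT and DHT with enzalutamide (adjusted p = 9.79e-05, 0.000208 and 2.48e-05 by edgeR). ACSL5 had 4.84, 6.11 and 6.99 CPM in KD10 cells, against 3.26, 3.82 and 3.48 CPM in NTC cells, with vehicle, and was 1.70-, 1.89- and 1.79-fold higher under the 3 treatments (adjusted p = 0.00556, 0.00207 and 0.00299 by edgeR). No KD10 library overlapped the NTC libraries for either gene under any treatment, and both calls held in every alternative run. Both genes rest on few reads, with 58 to 307 counts per CSS library for ACSL4 and 58 to 212 for ACSL5. The summed level of all 10 genes was 887 to 993 TPM in KD10 and 1015 to 1062 TPM in NTC cells with vehicle, 978 to 1377 and 1376 to 1537 TPM with DHT, and 972 to 1016 and 1034 to 1121 TPM with DHT and enzalutamide.

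**Figure D3:**
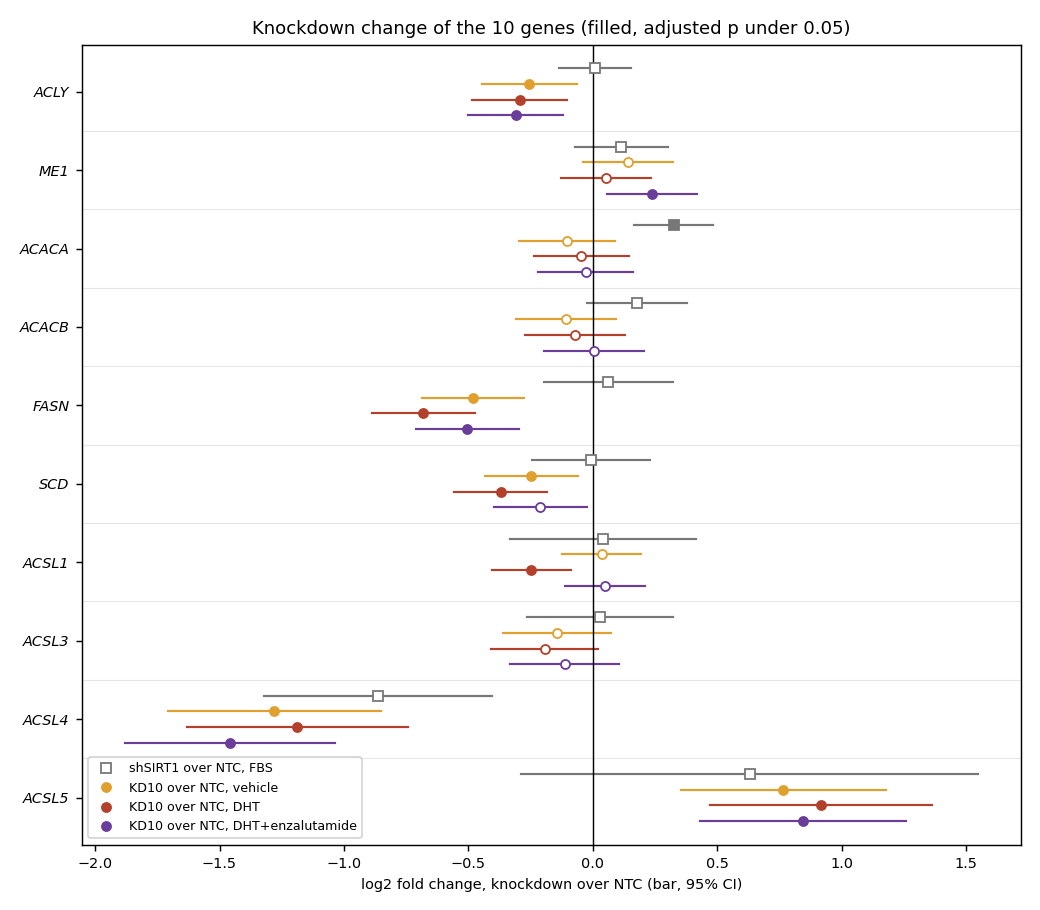
Fitted log2 fold change (horizontal axis, with 95% interval) of each gene for shSIRT1 over NTC in FBS (grey squares) and KD10 over NTC in CSS with vehicle (orange), DHT (red) and DHT with enzalutamide (purple). Filled symbols had an adjusted p under 0.05: FASN and ACLY are filled left of 0 in the CSS comparisons and open at 0 in FBS, while ACACA is filled right of 0 in FBS.

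In FBS the picture was different. Of the 10 genes 1 was called, where 2.71% of 14329 genes were called (0.509% higher and 2.21% lower), and replicates did not overlap for 3 (22.6% of all genes). ACACA had 882, 912 and 781 CPM in shSIRT1 cells, against 683, 666 and 708 CPM in NTC cells, 1.25-fold higher (log2 0.32, SE 0.0708, adjusted p = 0.0468 by edgeR). The call was lost without NTC replicate 1 or 2 or shSIRT1 replicate 1 or 2 (adjusted p = 0.193 to 0.218 by edgeR), and with replicates 1 and 2 of each group summed (log2 0.28, 0.621), and limma on TPM called none of the 10. FASN had 2048, 2040 and 1507 CPM in shSIRT1 cells, against 1913, 1750 and 1699 CPM in NTC cells, so that 2 shSIRT1 libraries were above the NTC range and 1 was below it (log2 0.06, interval -0.20 to 0.32). ACLY (log2 0.01, -0.14 to 0.15), SCD (-0.01, -0.24 to 0.23), ACSL1 (0.04, -0.33 to 0.42), ACSL3 (0.03, -0.26 to 0.32) and ME1 (0.11, -0.07 to 0.30) overlapped between the groups.

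ACSL4 had 2.27, 3.38 and 3.05 CPM in shSIRT1 cells, against 5.82, 4.44 and 5.58 CPM in NTC cells, without overlap (log2 -0.86, interval -1.32 to -0.40, adjusted p = 0.0601 by edgeR). With the replicate block it was called (adjusted p = 0.0214 by edgeR), which made 2 of the 10 genes and 1676 of all genes in place of 389, and with replicates 1 and 2 summed it was not (0.253). ACSL5 had 6 to 20 counts per library in FBS, and its log2 difference of 0.63 had an interval of -0.29 to 1.55. Without replicate 3 in both groups 6 of the 10 genes were called, 5 of them higher (FASN at log2 0.16, ACACA, SCD, ACSL1 and ACSL3) and ACSL4 lower, but that fit rests on the closely similar replicates 1 and 2.

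The knockdown change with vehicle in CSS was lower than that in FBS for FASN by 0.50 on the log2 scale (difference -0.50, interval -0.83 to -0.17, adjusted p = 0.0431 by edgeR) and for ACACA (difference -0.39, -0.60 to -0.17, adjusted p = 0.0191 by edgeR). These were 2 of the 10, where 13.8% of 15345 genes were called (7.47% higher and 6.29% lower). For ACSL4 (-0.37, -1.02 to 0.27) and ACSL5 (0.18, -0.76 to 1.11) no difference was shown. With the replicate block ACLY (-0.22, adjusted p = 0.016 by edgeR) and SCD (-0.21, 0.048) joined, so 4 of the 10 and 3937 of all genes were called. The FASN call was lost without any of 9 of the 12 libraries (adjusted p = 0.0535 to 0.107 by edgeR), the exceptions being FBS NTC replicate 1, FBS shSIRT1 replicate 3 and vehicle KD10 replicate 1. The ACACA call was lost without FBS shSIRT1 replicate 2 or vehicle KD10 replicate 3 (0.0525 and 0.0546). Serum, depth, RSEM setting and knockdown name change together here and cannot be told apart, and the fall of SIRT1 itself was smaller in CSS by 0.73 on the log2 scale (adjusted p = 0.00156 by edgeR).

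Over the 18 CSS libraries, FASN followed SCD (Pearson r = 0.966) and ACLY (0.959) most closely among the 10 genes and ran opposite to ACSL5 (-0.920), while ACACA followed ACSL3 (0.956). With ME1 (-0.285) and ACSL1 (0.262) the r of FASN was nearer 0. Among all genes of the fit, the patterns most like FASN were those of IMPDH1 (0.988), NOL6 (0.983) and CENPN (0.981), and most like ACSL3 those of PPAP2A (0.977), TWISTNB (0.976) and BRP44 (0.974). For ACSL1 the nearest were CMTM4 (0.852), TXNRD1 (0.833) and RFXAP (0.833). These are descriptions over libraries that share treatments and depth.

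RSEM also gives each gene an abundance-weighted transcript length, which the choice of genes did not use. For ACACA this length was 9582.2, 9588.3 and 9589.8 bases with DHT, against 9602.4, 9607.0 and 9603.8 bases with vehicle, in KD10 cells. In NTC cells it was 9584.9, 9590.3 and 9590.1 bases with DHT, against 9601.2, 9602.8 and 9608.3 bases with vehicle. The DHT libraries did not overlap the vehicle libraries, nor those with enzalutamide added (9600.1 to 9611.9 bases in KD10 and 9599.1 to 9607.5 bases in NTC cells), and the group means were 9587 with DHT and 9604 bases with vehicle in KD10, and 9588 and 9604 bases in NTC cells. The mix of ACACA isoforms that RSEM estimated thus differed slightly in these libraries. No test was made, and FASN, SCD, ME1 and ACSL1 had a fixed length in these files.

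**Figure D4:**
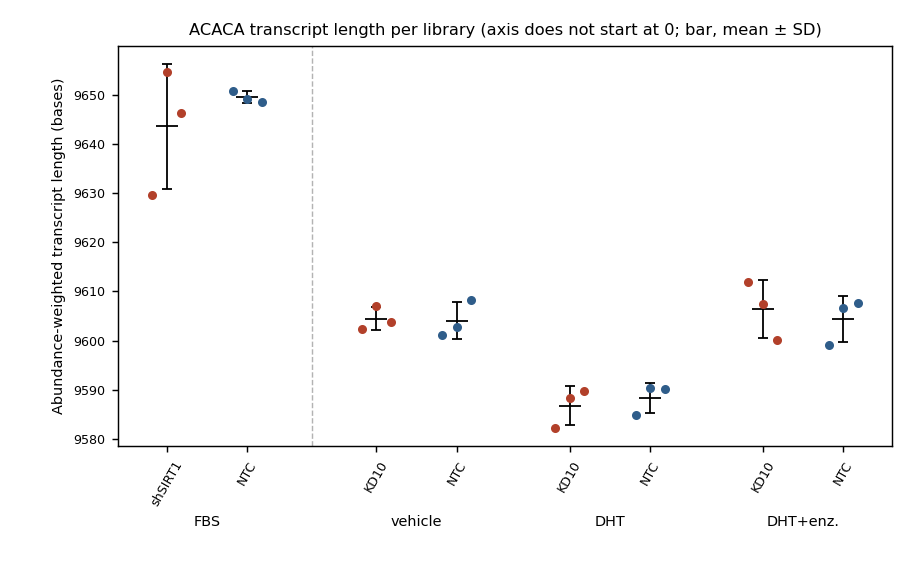
Abundance-weighted length of ACACA transcripts in bases (vertical axis, which does not start at 0) in each library (points) with the group mean and SD (bars, n = 3), for shSIRT1 or KD10 cells (red) left of NTC cells (blue) in FBS and in CSS with vehicle, DHT, or DHT with enzalutamide. All 6 DHT libraries lie under the 12 other CSS libraries.

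Genes that work beside the 10 were counted in 8 lists. Over all genes tested, 22.2% were called with DHT in KD10 and 29.9% in NTC cells, and 20.3% and 29.2% with enzalutamide added. In FBS 2.71% were called. Among the desaturases and elongases, which extend and unsaturate what FASN makes, 6 of 15 tested rose with DHT and none fell in KD10 cells, and 8 rose and none fell in NTC cells (median log2 change 0.22 and 0.35, against 0.01 and -0.00 over all genes). Over single omissions 3 to 6 were called in KD10 and 7 to 8 in NTC cells, and without replicate 1 in every CSS group 4 and 8 rose. ELOVL5, which elongates polyunsaturated fatty acids, was 2.80-fold higher with DHT in KD10 cells (654 ± 148 and 233 ± 7.60 CPM, adjusted p = 1.18e-07 by edgeR) and 2.89-fold higher in NTC cells (756 ± 97.2 and 261 ± 5.89 CPM, adjusted p = 2.74e-08 by edgeR). ELOVL7, an elongase of saturated long chains, was 2.41-fold higher in KD10 and 2.69-fold higher in NTC cells. With enzalutamide added 6 fell in KD10 cells, and 8 fell and 1 rose in NTC cells. In the knockdown with DHT, 2 of 15 rose and 4 fell in KD10 cells, a share near the 43% of all genes called there. Over single omissions 5 to 10 were called, and without replicate 1 in every CSS group 1 rose and 7 fell. FADS1, the delta-5 desaturase, was 3.23-fold lower (42.5 ± 4.68 CPM in KD10 and 137 ± 10.1 CPM in NTC cells, adjusted p = 2.12e-11 by edgeR) and FADS2, the delta-6 desaturase, 3.07-fold lower (177 ± 32.6 and 543 ± 46.3 CPM, adjusted p = 2.64e-09 by edgeR). Both were also called lower with vehicle (2.18- and 2.95-fold) and with DHT and enzalutamide (2.22- and 3.05-fold). The DHT response of FADS1 was smaller in KD10 than in NTC cells (log2 difference -0.57, adjusted p = 0.0265 by edgeR; 0.199% of all genes were called). Over single omissions 0 to 1 gene of this list was called for that difference. In FBS 1 of 13 rose and 4 fell, among them ELOVL5 (1.38-fold lower in shSIRT1 cells) and FADS1 (1.36-fold lower). Leaving out single FBS libraries gave 1 to 6 calls in this list.

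Of 18 tested genes that supply acetyl-CoA, malonyl-CoA and NADPH, 6 rose and 1 fell with DHT in KD10 cells, and 7 rose and 1 fell in NTC cells (22.2% and 29.9% of all genes were called). MTHFD1, a folate enzyme, was 1.41-fold higher in KD10 (121 ± 10.3 and 85.9 ± 3.0 CPM, adjusted p = 7.84e-06 by edgeR) and 1.58-fold higher in NTC cells (197 ± 11.4 and 125 ± 2.86 CPM, adjusted p = 1.27e-07 by edgeR), and PGD of the pentose phosphate pathway 1.19- and 1.15-fold higher. In KD10 against NTC cells 2 of the 18 rose and 5 fell with vehicle, and 2 rose and 7 fell with DHT, among them MTHFD1 (1.46- and 1.63-fold lower) and, with DHT, the mitochondrial citrate carrier SLC25A1 (1.29-fold lower, adjusted p = 0.000963 by edgeR). Of all genes tested 34.6% were called with vehicle and 43% with DHT, so these counts lie near the shares of all genes. Without replicate 1 in every CSS group the count with DHT over vehicle was 5 and 0 in KD10 and 6 and 0 in NTC cells, and over single omissions 3 to 6 and 4 to 7 genes were called.

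Where 22.2% of all genes were called with DHT in KD10 and 29.9% in NTC cells, the 17 regulators of lipogenesis moved both ways. With DHT 5 rose and 2 fell in KD10 cells, and 5 rose and 1 fell in NTC cells: INSIG1, an SREBP target that holds SREBP in the endoplasmic reticulum, was 1.37-fold higher in KD10 (97.1 ± 11.2 and 70.8 ± 3.30 CPM) and 1.67-fold higher in NTC cells (143 ± 5.94 and 85.8 ± 9.24 CPM), and its paralogue INSIG2 was 1.57- and 1.48-fold lower. SREBF2 was 1.27- and 1.31-fold higher. Over single omissions the calls in this list ranged over 3 to 7 in KD10 and 3 to 5 in NTC cells, and without replicate 1 in every CSS group 2 rose and 1 fell in KD10 cells. SREBF1, which encodes the SREBP1 proteins and was singled out for that role after its values were seen, was 1.16-fold higher with DHT in both cell types (adjusted p = 0.049 in KD10 and 0.0431 in NTC cells by edgeR). It was 1.16-fold lower in KD10 than in NTC cells with vehicle (219 ± 18.7 and 254 ± 9.19 CPM, adjusted p = 0.038 by edgeR) and with DHT (0.0351). The DHT call was lost without vehicle replicate 2 or 3 or DHT replicate 1 or 2 in KD10 cells (adjusted p = 0.166 to 0.233 by edgeR) and without any of the 6 libraries in NTC cells (0.0624 to 0.148). The vehicle knockdown call was lost without any NTC library or KD10 replicate 2 or 3 (0.0581 to 0.204), and the knockdown call with DHT without NTC replicate 1 or 2 or KD10 replicate 3 (0.0789 to 0.175). In KD10 against NTC cells 5 of the 17 rose and 4 fell with vehicle (4 to 9 called over single omissions), 3 rose and 4 fell with DHT, and 4 rose and 1 fell with DHT and enzalutamide (5 and 4 with the replicate block). Of all genes 34.6%, 43% and 34.6% were called in these 3 comparisons, and the last 2 counts lie near those shares. With DHT INSIG1 was 1.48-fold lower in KD10 cells (adjusted p = 0.000116 by edgeR) and INSIG2 1.33-fold higher (adjusted p = 0.00419 by edgeR). None of the 17 was called in FBS, and 2 were higher with the replicate block.

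The other lists changed in both directions. With DHT, 22.2% of all genes were called in KD10 and 29.9% in NTC cells. For the knockdown 34.6% of all genes were called with vehicle and 2.71% in FBS. Of 19 genes of glycerolipid synthesis and storage, 2 rose and none fell with DHT in KD10 cells, and 4 rose and 1 fell in NTC cells (6 and 3 with the replicate block). Over single omissions 1 to 5 were called in KD10 and 2 to 5 in NTC cells. LPIN1, which makes diacylglycerol, was 1.40- and 1.56-fold higher, and in KD10 against NTC cells 5 rose and 3 fell with vehicle, led by MGLL, which breaks down monoacylglycerol (2.02-fold lower, 4.86 ± 0.339 and 9.82 ± 0.719 CPM, adjusted p = 2.35e-06 by edgeR). MGLL was also the 1 of 17 called in FBS, 2.03-fold lower in shSIRT1 cells (2 higher and 2 lower in this list with the replicate block). Of 14 acyl-CoA thioesterases and binding proteins, 3 rose and 1 fell with DHT in KD10 and 3 rose and 3 fell in NTC cells, where DBI, the acyl-CoA binding protein, was 2.19-fold higher (442 ± 5.68 and 202 ± 13.2 CPM) and 1.75-fold higher (372 ± 47.5 and 213 ± 19.5 CPM). Of 12 other acyl-CoA synthetases and fatty acid transport proteins, 3 rose and 2 fell in KD10 and 3 rose and 3 fell in NTC cells with DHT. Mitochondrial fatty acid synthesis (9 genes) had 1 up and 1 down in both, and AMPK and biotinylation genes (10) had 1 up and 1 down in KD10 and 1 up and 2 down in NTC cells. Over single omissions the thioesterase list had 2 to 5 calls in KD10 and 4 to 6 in NTC cells, the other synthetases 2 to 3 and 4 to 6, mitochondrial synthesis 0 to 4 and 0 to 2, and AMPK and biotinylation 1 to 3 and 1 to 2. In FBS none of these last 4 lists had a call, but with the replicate block 3 thioesterase genes fell, 2 other synthetases fell, and 1 AMPK or biotinylation gene rose and 2 fell.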

How the data were processed

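Poly(A) RNA of 24 LNCaP libraries was prepared with a stranded TruSeq kit from about 500 ng of RNA, per the labels' protocols. The authors' files hold, per gene symbol, expected counts, TPM and FPKM made with RSEM 1.2.31 on hg19 after CASAVA 1.8.2, per the submitters' processing notes; the aligner is not given in the sources used here. The deposited expected counts are not normalized, the deposited TPM values are scaled per library and to transcript length, and the deposited FPKM values were not used. Libraries hold 11.9 to 14.2 M counts in FBS and 25.2 to 35.1 M in CSS.

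Expected counts were rounded and tested with edgeR 4.0.16 in R 4.3.3 (TMM, filterByExpr by group, 2-sided quasi-likelihood F test, Benjamini-Hochberg adjustment over all genes tested, called at 0.05). The 6 FBS libraries were fitted together (14329 genes), as were the 18 CSS libraries (14558 genes), and the FBS and CSS vehicle libraries for the difference between serum sets (15345 genes). Intervals are 95% from the fit. The script was tested on simulated data. The members and the 8 gene lists were chosen with earlier results of these data known. Named were all 10 genes, SIRT1 and KLK3 as checks, up to 3 called genes of lowest adjusted p per list and comparison, and the 3 genes of highest Pearson r with FASN, ACSL1 and ACSL3. The alternatives were DESeq2 1.42.0, its size factors in edgeR, limma 3.58.1 on log2(TPM + 0.5), no filter, a replicate block, other sets of libraries per fit and omitted libraries, and 1 (without replicate 1 in all CSS groups) was chosen after seeing the data.

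Groups share replicate numbers in the labels, which do not say what a number marks. Deviations from the group means of same-numbered libraries correlated with r over 0.1 for every pair, which was taken as pairing, in FBS (0.142, 0.16 and 0.349), for the knockdown with vehicle (0.356, 0.231 and 0.123) and with DHT and enzalutamide (0.267, 0.152 and 0.115), for DHT in NTC cells (0.341, 0.196 and 0.105), for added enzalutamide in KD10 (0.276, 0.167 and 0.166) and NTC cells (0.361, 0.186 and 0.112), and for DHT with enzalutamide over vehicle in KD10 cells (0.403, 0.292 and 0.162). This rule is loose. Replicate 1 of shSIRT1 cells in FBS had a higher r with an NTC library of another number. So did replicate 3 of NTC cells with DHT and enzalutamide, with a DHT library of another number.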

Additional observations from a re-analysis of the deposited data

Results flagged for a closer look

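The change with SIRT1 knockdown differed between the serum sets for 2 of the 10 genes, by a test of the difference itself in a joint fit of the 6 FBS and 6 CSS vehicle libraries. For ACACA the log2 change of KD10 over NTC cells with vehicle minus that of shSIRT1 over NTC cells in FBS was -0.386 (SE 0.100, adjusted p = 0.0191 by edgeR). For FASN it was -0.5016 (SE 0.154, adjusted p = 0.0431 by edgeR). Of 18 alternative runs, 10 lost the FASN call and 2 lost the ACACA call. The serum, the depth, the RSEM setting and the knockdown name differ together between the sets and cannot be told apart.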

How the results depend on the processing

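Of 1870 values recomputed for the 10 genes, 1773 kept their call or stayed uncalled, 57 lost a call and 39 gained one. Values uncalled in both runs were counted as kept whatever their sign, and some changed sign. FASN in FBS, at log2 0.06 in the main run, went as low as -0.01. The 1 value left turned with a call: SCD in FBS had a log2 change of 0.08933 (adjusted p = 0.0224 by edgeR) without replicate 3 in both FBS groups. The cause was not tested. In FBS, 389 genes and 1 of the 10 were called; limma gave 242 and 0, the replicate block 1676 and 2, all 24 libraries in 1 fit 876 and 2, replicates 1 and 2 summed 44 and 0, no replicate 3 in both groups 3426 and 6, and no filter 2 of the 10. For the knockdown with vehicle limma called 3 of the 10. With only the groups compared, KD10 cells gave 1649 genes for DHT and 1550 for added enzalutamide, and the replicate block gave 4518 and 8 of the 10 for added enzalutamide. For DHT with enzalutamide over vehicle, only the groups compared gave 1 gene in NTC cells; in KD10 cells DESeq2 gave 5, limma 0, no filter 2, the replicate block 6 and no replicate 1 in CSS 2. For the difference in DHT response (29 genes) DESeq2 gave 157, limma 3, the replicate block 427 and 1 of the 10, only the groups compared 7 and no replicate 1 in CSS 14. For the difference in enzalutamide response (51 genes) these were 252, 16, 573 and 1 of the 10, and 5 with only the groups compared. For the difference between serum sets the replicate block gave 3937 and 4 of the 10, and limma 1 of the 10.

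Leaving out single libraries gave 103 to 926 genes and 0 to 1 of the 10 in FBS. The 10 genes gave 3 to 5 calls for the knockdown with vehicle, 4 to 7 with DHT and 3 to 5 with DHT and enzalutamide, and 0 to 2 for the difference between serum sets. All genes gave 0 to 2 calls for DHT with enzalutamide over vehicle in KD10 cells, 5 to 90 for the difference in DHT response and 16 to 176 for that in enzalutamide response. For DHT in KD10 cells the numbers did not meet the pairing rule (r = 0.345, 0.228 and 0.047), nor for the knockdown with DHT (0.297, 0.157 and 0.0779), nor for DHT with enzalutamide over vehicle in NTC cells (0.378, 0.0956 and 0.111). There the replicate block called ACSL1 (adjusted p = 0.0436 by edgeR) and ACSL5 (0.0073) lower with DHT in KD10 cells and ACSL3 lower (0.0192) for the knockdown with DHT, and 4 higher and 2 lower glycerolipid genes with DHT in KD10 cells. Among the 10 genes it changed no call beyond these and those given in the text. ACSL5 in FBS, with 6 to 20 counts per library, is limited by depth.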
